A study of Mus musculus with 82 samples.

Results

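Mouse embryonic fibroblasts were reprogrammed with the retroviral factors Oct4, Sox2, Klf4 and c-Myc (OSKM), and their accessible chromatin was compared at day 3 between cells that also received RNase H1(D209N) and cells labelled as overexpressing Flag. All groups started from OG2-MEFs infected at passage 2 with virus from Plat-E packaging cells, and both arms carried OSKM, so both share the delivered factors; the series' design names a control, and Flag is read here as that control. The series holds 82 samples, 8 of them ATAC-seq libraries, and each of the 4 ATAC-seq groups has 2 replicates but 1 deposited peak list. The members are the intervals of the 2 day 3 lists on chromosomes 1 to 19, X and Y: 36375 in the Flag list and 29189 in the list for RNase H1(D209N), called D209N below, which makes 65564 of the 148455 intervals in the 4 lists. A peak was called shared when it had at least 1 bp in common with a peak of the other list, and otherwise Flag only or D209N only. With 1 list per group there is no replicate spread, so no test between the conditions was possible, and the 95% Wilson intervals given in parentheses cover counting error only. Read depth is unknown, and a difference in depth or in the calling of the lists cannot be told apart from a difference between the cells.

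ATAC-seq inserts sequencing adapters into open chromatin with the transposase Tn5, and peaks mark promoters, enhancers and other sites where nucleosomes are sparse. RNase H1 cuts the RNA strand of RNA:DNA hybrids, among them R-loops, in which nascent RNA pairs with its template behind RNA polymerase. R-loops are known to form at CpG-rich gene starts and at gene ends, and the D209N substitution lies in the catalytic site of the enzyme. In early OSKM reprogramming, fibroblasts are known to lose mesenchymal features and gain epithelial ones before most pluripotency genes open.

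The starts of 5 genes show the range of promoter sequence found where only 1 of the lists had a peak. Each line gives the 250 bases before the RefSeq gene start on GRCm38.p6, read along the gene's strand, with matches to the searched motifs in capitals. The motifs, searched on both strands, were GGGCGG (bound by KLF and SP factors), the CCAAT box, the E-box CACGTG and the AP-1 site TGANTCA. The TATA box was searched as TATAAA, the TEAD site as GGAATG and the octamer as ATGCAAAT. A match describes letters in this window and is not evidence of binding. Twist2, a mesenchymal transcription factor (chr1:91801211-91801460, plus strand), and Tle3, a transcriptional corepressor (chr9:61372116-61372365, plus strand), had a start peak in Flag only. Phf19, a Polycomb accessory protein (chr2:34913977-34914226, minus strand), and the collagen genes Col3a1 (chr1:45311288-45311537, plus strand) and Col6a1 (chr10:76726045-76726294, minus strand) had one in D209N only.
Twist2: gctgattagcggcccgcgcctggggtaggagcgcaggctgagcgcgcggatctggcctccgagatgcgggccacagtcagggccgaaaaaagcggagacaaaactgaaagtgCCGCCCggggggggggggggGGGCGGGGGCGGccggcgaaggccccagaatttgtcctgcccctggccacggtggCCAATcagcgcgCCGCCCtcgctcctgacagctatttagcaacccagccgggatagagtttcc
Tle3: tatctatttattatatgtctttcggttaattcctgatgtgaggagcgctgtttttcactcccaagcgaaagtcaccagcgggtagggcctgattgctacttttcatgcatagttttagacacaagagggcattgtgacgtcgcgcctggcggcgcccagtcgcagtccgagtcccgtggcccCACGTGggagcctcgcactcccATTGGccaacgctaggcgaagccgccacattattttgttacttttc
Phf19: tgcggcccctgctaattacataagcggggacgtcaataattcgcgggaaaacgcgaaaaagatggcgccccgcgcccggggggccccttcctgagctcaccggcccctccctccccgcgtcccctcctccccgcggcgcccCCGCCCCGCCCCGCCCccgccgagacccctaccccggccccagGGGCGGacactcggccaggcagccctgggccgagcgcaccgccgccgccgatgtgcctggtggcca
Col3a1: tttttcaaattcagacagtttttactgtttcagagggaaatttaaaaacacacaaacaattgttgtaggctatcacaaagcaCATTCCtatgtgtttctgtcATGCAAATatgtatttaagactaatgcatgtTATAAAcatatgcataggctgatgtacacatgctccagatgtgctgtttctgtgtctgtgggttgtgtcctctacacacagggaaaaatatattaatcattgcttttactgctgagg
Col6a1: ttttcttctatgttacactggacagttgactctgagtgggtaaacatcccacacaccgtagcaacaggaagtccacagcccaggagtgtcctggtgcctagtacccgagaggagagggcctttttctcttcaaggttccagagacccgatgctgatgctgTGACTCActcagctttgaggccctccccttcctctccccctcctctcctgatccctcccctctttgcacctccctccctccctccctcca
Over the 300-base promoter window, which adds the 50 bases after the start, Twist2 held 25 CpG dinucleotides and Phf19 held 38. Both also had 4 matches to GGGCGG in the 250 bases shown. Tle3 held 21 CpG, with 1 E-box and 1 CCAAT match. Col3a1 held 0 CpG and Col6a1 held 3. The Col3a1 stretch has TATA box, octamer and TEAD letters, and the Col6a1 stretch has an AP-1 match.

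Most accessible sites were common to both arms, and those found in 1 arm were mainly in Flag. Of the Flag peaks, 26049 (71.6%, 71.1 to 72.1) were shared and 10326 (28.4%, 27.9 to 28.9) were Flag only. Of the D209N peaks, 26191 (89.7%, 89.4 to 90.1) were shared and 2998 (10.3%, 9.93 to 10.6) were D209N only. Merging both lists gave 39273 regions: 66.1% came from both, 26.3% from Flag only and 7.63% from D209N only. Sharing was seldom marginal: 25 Flag peaks and 32 D209N peaks touched their partner by 10 bp or fewer. The Flag-only peaks lay at a median of 16.9 kb from the nearest D209N peak. Of them 3.68% lay within 500 bp, 36.0% within 10 kb and 90.0% within 100 kb. For D209N-only peaks the median distance to the nearest Flag peak was 12.4 kb. Of these 9.24% lay within 500 bp, 44.0% within 10 kb and 93.3% within 100 kb.

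Peaks found in 1 list were narrow. The median width was 573 bp (quartiles 413 and 772) for shared Flag peaks and 287 bp (232 and 372) for Flag-only peaks. It was 495 bp (348 and 693) for shared D209N peaks and 264 bp (215 and 339) for D209N-only peaks. The widest peak without a partner measured 1265 bp in Flag and 950 bp in D209N, against 5570 bp and 5540 bp among shared peaks. The Flag-only class took up 28.4% of the Flag peaks but 16.6% of the base pairs they cover.

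The share of peaks with a partner climbed with width in both lists. In Flag it went from 16.8% (15.0 to 18.7) at 200 bp or less and 33.8% at 201 to 300 bp to 91.8% at 501 to 700 bp and 99.3% above 1000 bp. In D209N it went from 58.1% (55.6 to 60.6) at 200 bp or less and 73.3% at 201 to 300 bp to 98.7% at 501 to 700 bp and 100% (99.8 to 100) above 1000 bp. In each width band Flag peaks were less often matched than D209N peaks, and the gap was widest among the narrowest peaks.

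**Figure D1:**
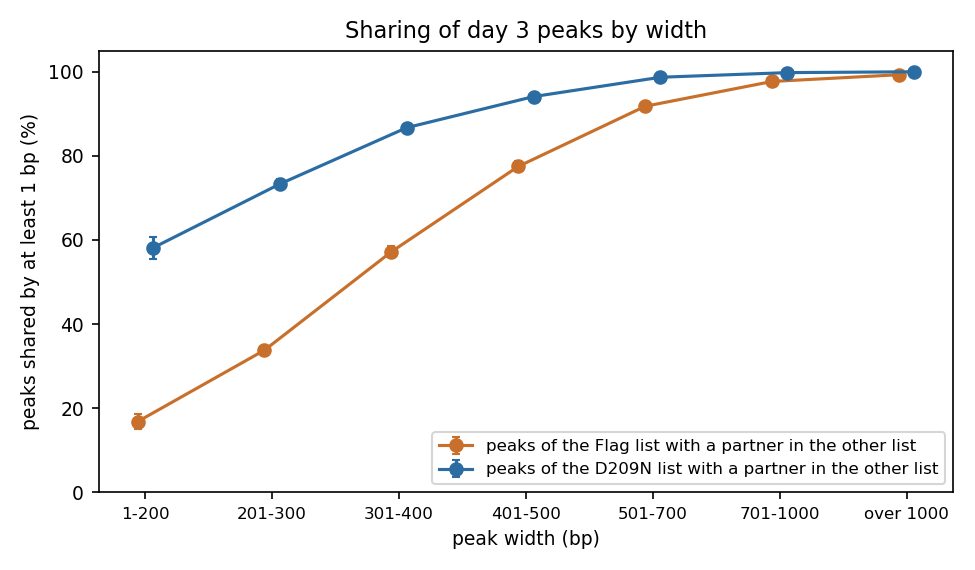
Share of day 3 peaks (%, vertical axis) that have a partner of at least 1 bp in the other list, by peak width in bp, for the Flag list and the D209N list, with Wilson 95% intervals as bars. Both lines approach 100% above 1000 bp, and at 200 bp or less they stand at 16.8% for Flag and 58.1% for D209N.

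Shared sites were also narrower in D209N. Among 25613 pairs in which each peak had 1 partner, the median width was 571 bp in Flag and 495 bp in D209N. The D209N peak was the narrower one in 68.4% of pairs (67.8 to 68.9), with a median difference of -57 bp (quartiles -155 and 22). At gene starts the D209N peak was narrower in 71.0% of 8725 pairs, with a median difference of -68 bp, and inside genes away from their ends in 66.4% of 6883 pairs, with a median of -52 bp. At day 7 the same comparison over 34177 pairs gave 48.7% narrower in D209N and a median difference of 2 bp. D209N peaks were thus the narrower ones in most day 3 pairs at each gene position examined, and in about as many day 7 pairs as not. Wide Flag sites could also break up: 238 Flag peaks met more than 1 D209N peak, against 99 D209N peaks that met more than 1 Flag peak. The start of App, which encodes the amyloid precursor protein, had a Flag peak of 1877 bp that met D209N peaks of 726 and 732 bp.

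Single loci illustrate the width differences in both directions, as the largest of the 25613 pairs. At Zic5, a zinc finger factor of neural development, a Flag peak of 1716 bp faced a D209N peak of 450 bp. At the start of Gabrb2, a GABA receptor subunit, the widths were 1281 and 53 bp, and beside Tnik, a kinase gene, they were 1138 and 14 bp. The reverse was seen 6.32 kb from an end of F11r, which encodes a junctional adhesion molecule, with 291 bp in Flag and 1278 bp in D209N. At the start of Unc5c, a netrin receptor, the widths were 771 bp in Flag and 1474 bp in D209N. Intervals of 14 or 53 bp are far below the usual peak, and 116 Flag and 134 D209N intervals were under 50 bp.

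Shared peaks lay at gene starts far more often than unshared ones. A gene start here means the 1 kb on either side of a RefSeq start, and chromosome 18, for which no starts were used, was left out of these shares. Gene starts took 35.5% of shared peaks in either list, 11.3% (10.7 to 11.9) of Flag-only peaks and 8.69% (7.72 to 9.77) of D209N-only peaks. Gene bodies took 27.6% of shared Flag peaks, 42.6% of Flag-only peaks and 43.6% of D209N-only peaks. Sites between genes took 28.4%, 40.1% and 43.1% in the same order. The median distance to the nearest start was 15.3 kb for shared Flag peaks, 37.5 kb for Flag-only peaks and 37.4 kb for D209N-only peaks. Both unshared classes thus lay mostly inside and between genes.

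**Figure D2:**
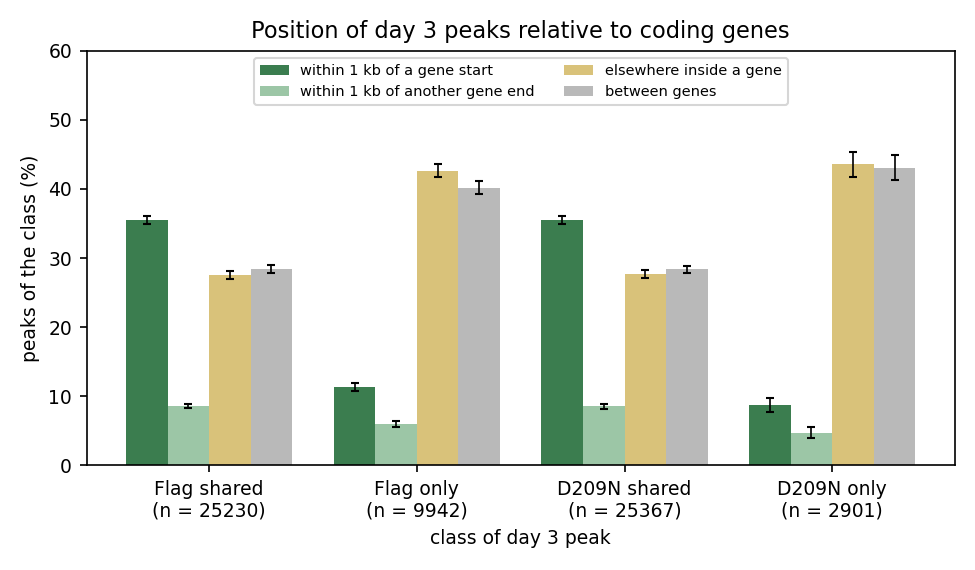
Share of peaks (%, vertical axis) in each class of day 3 peak by position relative to coding genes, with Wilson 95% intervals as bars; chromosome 18 is left out. Gene starts hold 35.5% of shared peaks but 11.3% of Flag-only and 8.69% of D209N-only peaks, and gene bodies and sites between genes hold the larger shares of the unshared peaks.

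Read the other way, a gene-start peak seldom lacked a partner. Of Flag peaks at gene starts 88.9% (88.2 to 89.5) were shared, against 62.1% in gene bodies and 64.2% between genes. For D209N the values were 97.3%, 84.7% and 85.2%. Gene-start peaks were also wide, with a median of 699 bp in Flag against 389 bp in gene bodies. Within a width band the difference depended on the width. Among Flag peaks of 501 to 700 bp, 35.1% of shared and 23.7% (20.5 to 27.2) of Flag-only peaks lay at a gene start. Among D209N peaks of that width the values were 41.1% and 9.64% (4.97 to 17.9). Among Flag peaks of 200 bp or less the classes overlapped, at 12.0% (8.57 to 16.7) of shared and 11.0% (9.39 to 12.9) of Flag-only peaks.

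Promoters with an unshared peak were GC-rich like those open in both arms, with somewhat fewer CpG. Each RefSeq promoter was placed by the peaks that overlap its 300 bases by at least 1 bp, not by the 1 kb window used above. The 328 promoters reached only by the edge of a shared peak were kept apart. At least 10 CpG were present in 91.6% of 10039 promoters with a peak in both lists, 79.2% (76.3 to 81.9) of 795 with a Flag-only peak and 75.9% (68.0 to 82.4) of 133 with a D209N-only peak. The share was 19.1% of promoters with no peak and 56.8% of all 21263. GGGCGG, which itself contains CpG, was present in 70.9%, 64.9% and 62.4% of the 3 open classes and in 46.2% of all promoters. CCAAT differed more: 40.5% of promoters open in both lists held it, 30.9% (27.8 to 34.2) of those with a Flag-only peak and 23.3% (16.9 to 31.2) of those with a D209N-only peak, against 38.2% of all promoters. The AP-1 letters were present in 4.12%, 5.91% and 6.77%, against 6.99% of all promoters. TATAAA was present in 5.55%, 7.42% and 7.52%, against 12.6% of all. The intervals of the Flag-only and D209N-only promoters overlapped for each of these features. Among the 328 edge promoters, 74.4% had at least 10 CpG, 58.5% had GGGCGG and 24.7% had CCAAT. The lower shares of CpG and CCAAT were thus not particular to promoters with an unshared peak.

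A start peak was present in both lists at 9355 of 17492 coding genes (53.5%), in Flag only at 818 (4.68%) and in D209N only at 136 (0.777%). For 17 and 9 of these genes the call rested on the edge of a shared peak. Most of these starts had a peak in both arms at day 7. Of the 818 Flag-only genes, 719 (87.9%, 85.5 to 90.0) had a start peak in both day 7 lists, 34 in Flag only, 19 in D209N only and 46 in neither. Of the 136 D209N-only genes, 114 (83.8%) had one in both day 7 lists. When each peak was given to whichever coding gene had an end closest to its centre, up to 100 kb away, 5269 of 21887 coding genes (24.1%) had fewer peaks in D209N and 1400 (6.40%) had more. Over the 14803 genes with an assigned peak in either list, these are 35.6% and 9.46%. In all, D209N had 81.0 assigned peaks per 100 in Flag, and 83.1 per 100 when only peaks within 20 kb of a gene end were assigned. Gene lists are read against these values below, and no list was tested.

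Pluripotency genes had fewer D209N than Flag peaks in 14 of 35 cases and more in 1, Epcam. Together they had 77 peaks in Flag and 53 in D209N, which is 68.8 per 100 against 81.0 over all coding genes, and 69.8 against 83.1 within 20 kb. Of the 27 members with a peak 51.9% had fewer in D209N, against 35.6% of all such genes. Sall4, a zinc finger factor of pluripotent cells, had no D209N peak: its Flag peaks of 239, 369 and 192 bp were all Flag only. The Sall4 peak at chr2:168766970-168767338 reaches one outer end of the gene, and all 3 sites were in both day 7 lists. Nr0b1, which encodes the repressor Dax1, had Flag peaks of 242 and 219 bp and none in D209N, and both sites were missing from both day 7 lists. Utf1, a chromatin protein of pluripotent cells, had a Flag-only start peak of 182 bp, and Trim71, an RNA-binding protein, had one of 176 bp. The start sites of Utf1 and Trim71 were in both day 7 lists. Tet2, a 5-methylcytosine oxidase, had 10 Flag and 6 D209N peaks, and for Nanog the counts were 2 and 1. Within 20 kb the difference was -2 at Tet2 and 0 at Nanog. Esrrb and Lin28a had 1 and 0. Of the 24 members with a RefSeq start, 12 had a start peak in both lists, 3 in Flag only and 0 in D209N only. Over all coding genes with a start these shares were 53.5%, 4.68% and 0.777%.

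Epithelial genes were mixed, with 9 of 28 lower and 5 higher in D209N, and 53 against 46 peaks. Among the 22 with a peak these are 40.9% and 22.7%, against 35.6% and 9.46% of all such genes. Cdh1, which encodes E-cadherin, had 3 Flag-only peaks and 1 shared peak. The Cdh1 peak at chr8:106603296-106603679 overlaps one outer end of the gene and was in both day 7 lists. The other Flag-only Cdh1 sites, of 308 and 271 bp inside the gene, were at day 7 in the D209N list and not in the Flag list. Grhl2, an epithelial transcription factor, had 4 Flag and 3 D209N peaks, with a Flag-only peak of 294 bp at an outer gene end. The desmosome gene Dsp had 4 in Flag and 5 in D209N, Epcam had 4 and 5, and Cldn4, a tight junction gene, had 3 and 4. The list stood at 86.8 D209N peaks per 100 in Flag, and at 83.3 within 20 kb, where Dsp and Epcam had no difference.

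Mesenchymal genes were lower in D209N in 12 of 24 cases and higher in 2, with 83 Flag and 63 D209N peaks (75.9 per 100, and 74.4 within 20 kb). Runx1, a transcription factor active in fibroblasts, had 11 and 7 peaks, the adhesion gene Cdh2 had 9 and 5, and Tgfbr2, a TGF-beta receptor, had 8 and 5. Most of these differing peaks lay over 20 kb from either gene end: within 20 kb the difference was 0 at Runx1 and -1 at Cdh2 and Tgfbr2. Twist2 had a Flag-only start peak of 422 bp (chr1:91801448-91801869), Tgfb1, the ligand, one of 464 bp, and Runx2, a skeletal transcription factor, one of 297 bp. The Twist2 and Tgfb1 sites were in both day 7 lists, and the Runx2 site was in the Flag day 7 list only. The members with more peaks in D209N were Prrx1 and Thy1, both fibroblast genes, at 3 against 5 and 1 against 2, and with no difference within 20 kb. Prrx1 had 3 D209N-only sites inside the gene, of 312, 65 and 330 bp, and none of them was in either day 7 list. Of the 23 members with a peak, 52.2% had fewer in D209N and 8.70% had more, against 35.6% and 9.46% of all such genes. The ratio of 75.9 stood against 81.0 over all coding genes, and that of 74.4 within 20 kb against 83.1. Ratios of several lists below were near 75.9 with assignment up to 100 kb.

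Fibroblast matrix genes split at their starts. Their 24 members had 66 Flag and 54 D209N peaks. These are 81.8 per 100, and 85.0 within 20 kb, near the 81.0 and 83.1 over all coding genes. The members were lower in D209N in 10 cases and higher in 3. Among the 22 with a peak these are 45.5% and 13.6%, against 35.6% and 9.46% of all such genes. Col5a1 had 1 Flag peak of 837 bp, at its start, and none in D209N, and Timp1, a protease inhibitor, had a Flag-only start peak of 265 bp. Both sites were in both day 7 lists. The Col3a1 start had a D209N-only peak of 223 bp (chr1:45311430-45311652), and the Col6a1 start had one of 281 bp (chr10:76726165-76726445). Unlike most unshared start peaks, those of Col3a1 and Col6a1 were again in the D209N list and not in the Flag list at day 7. Col1a1 had 2 and 1 peaks, and Sparc, a matrix glycoprotein, had 2 and 3.

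Polycomb genes, which encode repressors of developmental genes, were lower in D209N in 9 of 30 cases and higher in 5, with 80 and 58 peaks (72.5 per 100). Among the 28 with a peak, 32.1% had fewer, a smaller share than the 35.6% of all such genes, and 17.9% had more, against 9.46%. Within 20 kb the list had 89.1 D209N peaks per 100 in Flag. Bcor and Rybp, both subunits of variant Polycomb complexes, carried much of the difference in peaks. Of 13 Flag peaks at Bcor 9 were Flag only, and D209N had 5 peaks there. Rybp had 8 and 2, of which the 6 Flag-only peaks measured 241 to 490 bp and lay outside the gene. At day 7 Rybp had 14 peaks in Flag and 15 in D209N. Jarid2 had 9 and 5. Within 20 kb the differences were -2 at Bcor, -1 at Rybp and 0 at Jarid2. Phf19 had the reverse at its start, a D209N-only peak of 227 bp at chr2:34913750-34913976, which was in both day 7 lists.

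Circadian clock genes were lower in D209N in 9 of 20 cases and higher in 2, with 61 and 47 peaks. All 20 had a peak, so these are 45.0% and 10.0%, against 35.6% and 9.46% of all such genes. The ratio was 77.0 per 100, and 76.1 within 20 kb, against 81.0 and 83.1 over all coding genes. Arntl, which encodes the clock activator Bmal1, had 15 Flag peaks and 8 D209N peaks, and the other members differed by at most 2 peaks, with 9 equal. Cell cycle genes were lower in 9 of 22 cases (40.9%) and higher in 1 (4.55%), Ccnd3, with 64 and 49 peaks. Their ratio of 76.6 per 100 was below the 81.0 of all coding genes. Within 20 kb it was 87.5, above the 83.1 of all coding genes. In this list Ccnd1, which encodes cyclin D1, had 8 and 5 and Cdk6, its partner kinase, had 13 and 11. Within 20 kb the difference was -1 at Ccnd1, and at Cdk6 it reversed to 1 more peak in D209N. All 18 cell cycle genes with a RefSeq start had a start peak in both lists. In neither of these gene lists was a RefSeq start occupied in 1 arm only. Over all coding genes with a start, 53.5% had a start peak in both lists, 4.68% in Flag only and 0.777% in D209N only.

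Genes of R-loop processing encode nucleases, helicases and RNA-binding proteins that act on RNA:DNA hybrids. They were lower in D209N in 7 of 23 cases and higher in 2, with 31 and 24 peaks. Among the 20 with a peak these are 35.0% and 10.0%, near the 35.6% and 9.46% of all such genes. The ratio was 77.4 per 100, and 92.3 within 20 kb, against 81.0 and 83.1 over all coding genes. Top1, which relieves supercoiling behind polymerase, had 5 and 2 peaks but no difference within 20 kb, and Rnaseh2b, an RNase H2 subunit, had 2 and 1. All 18 members with a RefSeq start had a start peak in both lists, against 53.5% of all coding genes with a start. AP-1 genes, whose products bind fibroblast enhancers, were nearly even at 35 Flag and 34 D209N peaks. Jun had 5 and 4, Junb had 2 and 3, and Fosl1 had 1 and 2. Housekeeping genes had 41 and 39 peaks, with 2 lower, 3 higher and all 14 starts in both lists. The AP-1 and housekeeping lists sat at 97.1 and 95.1 D209N peaks per 100 in Flag, against 81.0 over all coding genes.

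**Figure D3:**
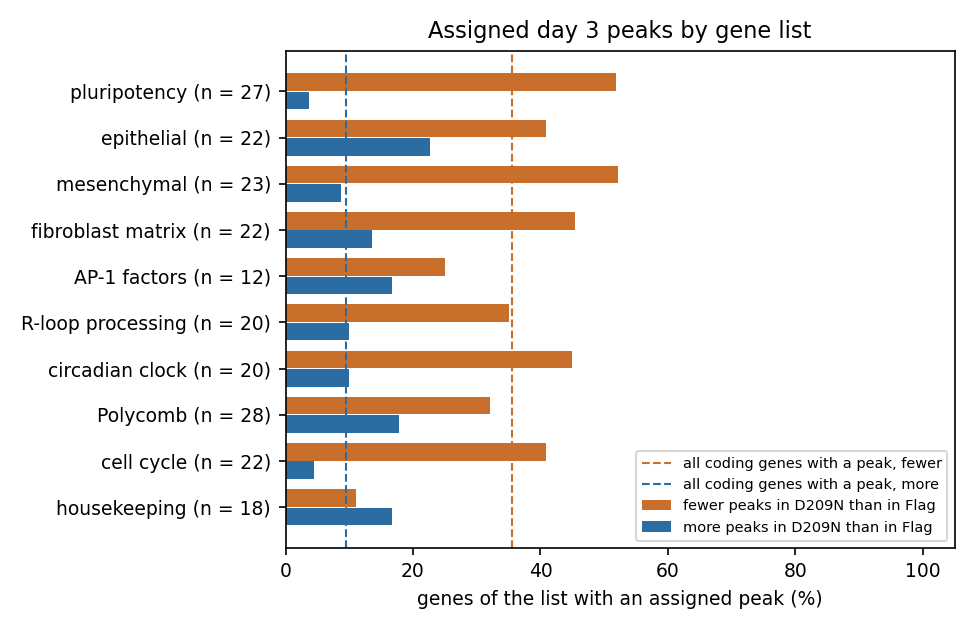
Share of genes with an assigned peak (%, horizontal axis) that had fewer or more day 3 peaks in D209N than in Flag, for 10 gene lists, with dashed lines for all coding genes with a peak at 35.6% and 9.46%. Right of the first line lie pluripotency (14 of 27 genes with fewer), mesenchymal (12 of 23), fibroblast matrix (10 of 22) and circadian clock genes (9 of 20). Epithelial and cell cycle genes (9 of 22 each) also lie right of it. R-loop processing (7 of 20), Polycomb (9 of 28), AP-1 (3 of 12) and housekeeping genes (2 of 18) lie left of it.

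Markers of cell types gave small counts, in both directions. The 7 fibroblast markers had 16 Flag and 18 D209N peaks, but 11 and 10 within 20 kb. Each of them had a peak in at least 1 list, as did all 7 neural markers and 14803 of 21887 coding genes. So did 5 of 6 endothelial, 5 of 6 trophoblast and 5 of 7 macrophage and blood markers. For endoderm, keratinocyte and muscle markers it was 4, 3 and 2 of 6. Keratinocyte markers had 5 Flag and 5 D209N peaks, endothelial markers 18 and 19, and trophoblast markers 16 and 16. Neural markers had 19 and 16, endoderm markers 8 and 5, and muscle markers 12 and 11. Macrophage and blood markers had 6 and 8 peaks, and Tal1, a blood transcription factor, had a D209N-only start peak of 239 bp. Nes, which encodes the intermediate filament nestin, had a D209N-only start peak of 262 bp, while the neural markers Pax6 (4 and 2), Tubb3 (3 and 2) and Map2 (7 and 6) had fewer D209N peaks. Eomes, a trophoblast and mesoderm factor, had a Flag-only start peak of 556 bp. Within 20 kb trophoblast markers had 10 and 7 peaks, endoderm markers 3 and 2 and neural markers 10 and 10. Endothelial markers had 10 and 11 there, macrophage and blood markers 5 and 6, muscle markers 3 and 3 and keratinocyte markers 1 and 1. The part of other cells in the differences was not tested.

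With assignment up to 100 kb, the largest deficits in D209N were at Bcor and Creb3l2, a stress-responsive transcription factor, with 13 and 5 peaks each. App followed with 10 and 3, Cd109, a TGF-beta co-receptor, with 11 and 4, Arntl with 15 and 8, Zswim6 with 16 and 9 and Zbtb7c with 18 and 11. Col19a1, a collagen gene, had 7 and 1. The only D209N peak assigned to it, of 4425 bp, was shared and lay between genes, 25.9 kb from the nearest gene end. Fmnl2, an actin regulator, had 8 and 2, with a Flag-only start peak of 982 bp. This order holds for that limit alone. Within 20 kb the differences were -2 at Bcor and Zswim6, -3 at Creb3l2 and -1 at Fmnl2, while Arntl, Lhx2 and Tex15 had -4, and the largest was -5 at Meis2 (8 and 3), a homeodomain factor. The excesses were smaller: no gene had over 3 more peaks in D209N. Of the 10 named, Dnah7a, an axonemal dynein, and Ptpn5, a phosphatase, had 0 peaks in Flag and 3 in D209N. The collagen gene Col16a1, the kinase gene Cdk19 and the corepressor gene Runx1t1 each had 3 and 6. Of the intervals at Ptpn5, 2 measured 93 and 53 bp, and all 3 sites were in both day 7 lists.

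At 41 genes there were at least 3 peaks in Flag and none in D209N, and at 2 genes the reverse. Tle3 had Flag peaks of 357, 309, 371 and 258 bp, of which the third covers the start at chr9:61372207-61372577, and 3 of the 4 sites were in both day 7 lists. Tle3 had 9 peaks in each day 7 list. Lhx2, a LIM homeodomain factor, had 4 Flag-only peaks of 236 to 418 bp, with 2 at annotated starts, and 6 and 7 peaks at day 7. Ldhd, a mitochondrial lactate dehydrogenase, had 5 and 0, with 4 and 5 at day 7. Such day 7 counts are of all peaks assigned to the gene, at any site. The Flag-only Ldhd sites of 272 and 524 bp were in both day 7 lists. Its start peak of 290 bp and its sites of 85 and 183 bp were in neither. Tex15, a germ cell gene, had 4 and 0, with 1 and 1 at day 7. The 4 Flag-only sites assigned to Gpr22, an orphan receptor, measured 158 to 281 bp and were in neither day 7 list. Genes without a D209N peak at day 3 therefore differed at day 7, from most sites in both lists at Tle3 to none in either at Gpr22.

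**Figure D4:**
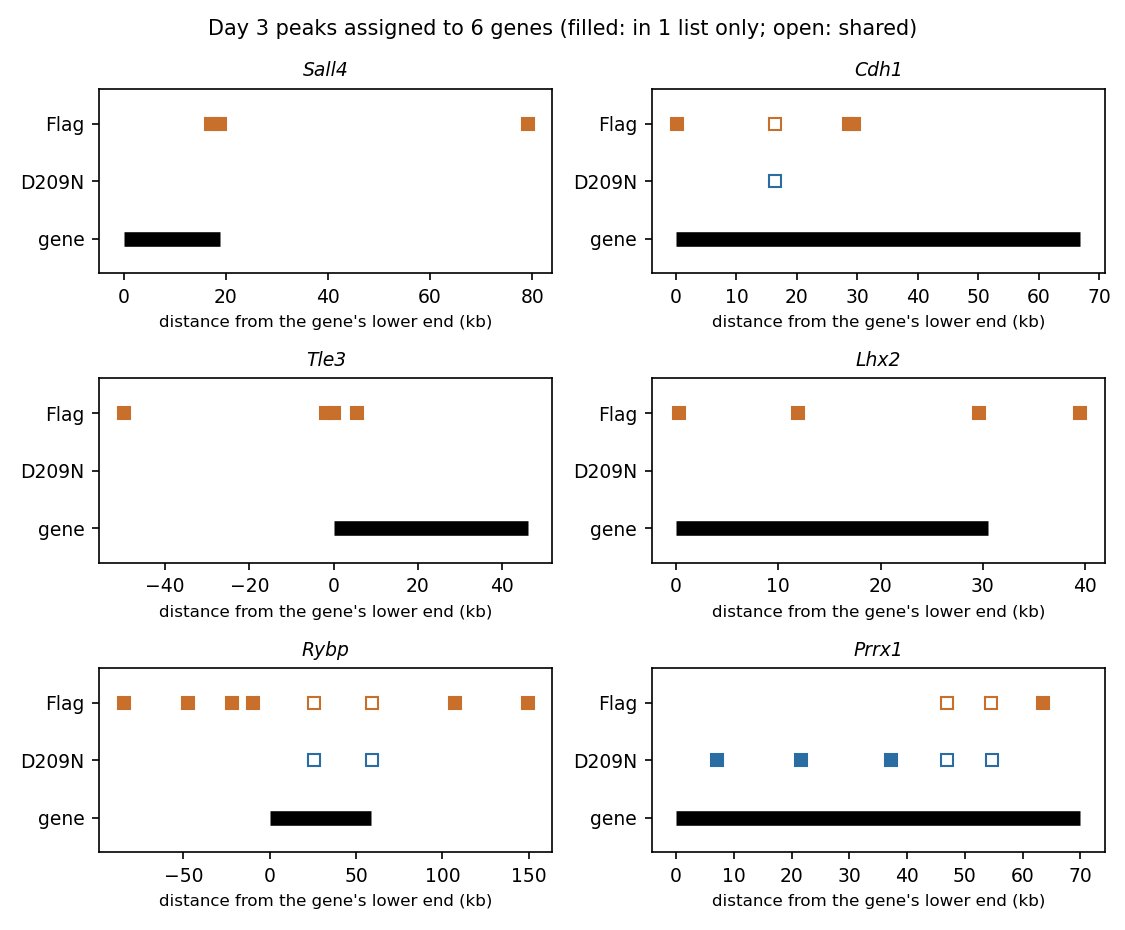
Day 3 peaks assigned to Sall4, Cdh1, Tle3, Lhx2, Rybp and Prrx1 by distance in kb from the gene's lower coordinate end, in the Flag row and the D209N row, with the gene as a black bar; filled squares are in 1 list only, open squares are shared, and squares mark centres and not widths. Sall4, Tle3 and Lhx2 have 3, 4 and 4 Flag peaks and none in D209N, and Prrx1 has 3 peaks in D209N only.

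Most unshared regions did not adjoin another region of their own class: 6281 of 10326 Flag-only and 2625 of 2998 D209N-only regions stood as runs of 1. Regions of another class could lie close to them. Runs of neighbouring regions of 1 class, no more than 100 kb apart, reached 6 regions for Flag only, at 4 places, and 3 regions for D209N only, at 9 places. The Flag-only runs of 6 lay at Znrf1 and Ldhd (75.1 kb), between Foxo1 and Cog6 (150 kb), at Purg and Tex15 (174 kb) and at App (218 kb). The shortest of the named Flag-only runs was in the Hoxa cluster, where 5 Flag-only regions of 227 to 266 bp lay within 25.0 kb of chr6:52172581-52197534, from Hoxa3 to Hoxa5, which encode anterior-posterior patterning factors. Of these, 4 were in the Flag day 7 list and 3 in that of D209N. The Hoxa3 start had the opposite, a D209N-only peak of 535 bp at chr6:52212941-52213475 that was in both day 7 lists. The 5 shortest D209N-only runs of 3 lay at Dnah7a, 96.5 to 111 kb from the nearest end of Tnfaip3, inside Prrx1, inside Col4a1 and on chromosome X. The widest Flag-only peaks, of 1265 and 1213 bp, lay inside Tnrc6a and at the start of Marveld1, and the widest D209N-only peaks, of 950 and 878 bp, lay inside Myof and at the start of Ppp1r8. All 4 of these sites were in both day 7 lists.

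The imbalance held over the genome. The share of Flag peaks that were Flag only ran from 23.0% (20.5 to 25.8) on chromosome 19 to 32.3% (29.4 to 35.3) on chromosome X, leaving out chromosome Y, which had 15 Flag peaks. Chromosome X also had the lowest D209N-only share, 7.88% (6.10 to 10.1), and so 5.53 Flag-only peaks for each D209N-only peak, against 2.22 on chromosome 19. Of 2482 windows of 1 Mb with a region, Flag-only regions were the more numerous in 2005, D209N-only regions in 159, and both were equal in 318.

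Many of the unshared sites were listed again at day 7, in either arm to about the same extent. Of Flag-only peaks 53.5% (52.6 to 54.5) overlapped a Flag day 7 peak and 53.0% (52.0 to 54.0) a D209N day 7 peak. For D209N-only peaks the values were 56.0% (54.2 to 57.8) and 53.9% (52.1 to 55.6). A site listed at day 3 in one arm was thus found at day 7 about as often in the other arm as in its own. Neither day 7 list held 38.8% of Flag-only and 35.5% of D209N-only peaks, against 10.1% of shared peaks. At matched width, 201 to 400 bp, neither list held 21.7% of shared Flag peaks and 39.8% of Flag-only peaks. At gene starts 80.9% of Flag-only and 70.6% (64.7 to 75.9) of D209N-only peaks were in both day 7 lists, against 39.2% and 42.0% away from gene starts and ends. Between the day 7 lists themselves, 17.7% of 42439 Flag peaks and 13.9% of 40452 D209N peaks had no partner, so the gap in unshared share was smaller than at day 3.

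**Figure D5:**
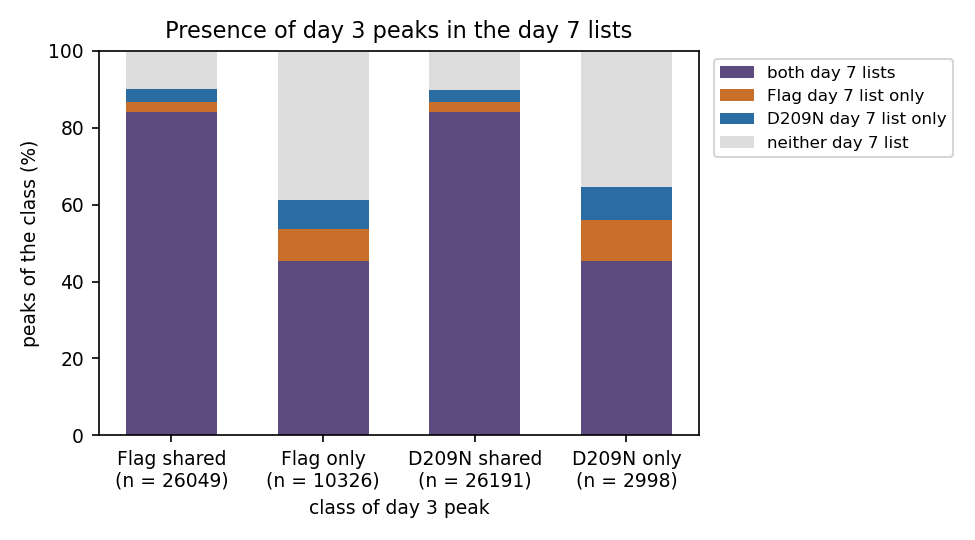
Share of each class of day 3 peak (%, vertical axis) found by at least 1 bp in both, 1 or neither of the day 7 lists. Both day 7 lists hold 84.1% of shared Flag peaks, 45.4% of Flag-only peaks and 45.3% of D209N-only peaks, and the segments for a single arm stay between 2.61% and 10.7%.

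The loci of the delivered genes differed little. Klf4 had 4 peaks in each list, Myc had 7, Pou5f1 had 3 and Rnaseh1 had 1. Sox2 had 4 in Flag and 2 in D209N, and one of its Flag-only peaks, of 381 bp, lay at the gene start beside a shared peak. Reads of the delivered constructs can map to these genes, and their part in these peaks was not tested.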

How the data were processed

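Accessible chromatin was measured by ATAC-seq on 50000 cells per reaction, per the labels' protocols. The authors deposited 1 list of peak intervals per group, with positions and names; every name carries rep1, and 146 Flag and 162 D209N names stand on several intervals. CASAVA, Bowtie2 2.3.2, mm10 and GRCm38.p5 are listed in the submitters' processing notes. Not given in the sources used here are the peak caller, its threshold, insertion offsets and how replicates were handled. Overlaps and assignments were computed in Python 3.11.15 with numpy 2.4.6, pandas 2.3.3 and scipy 1.17.1, and were checked on simulated lists. Gene positions came from RefSeq GRCm38.p6: 21887 coding genes, of which 17492 have one or more of 21263 starts in the promoter table. Starts on chromosome 18 were not used. The members, gene lists and tests were chosen with earlier results of these data known. Named genes were list members with a start or end peak in 1 list, the 10 largest deficits and excesses, up to 10 genes with at least 3 peaks in 1 list and 0 in the other, the widest unshared peaks, longest runs, largest width differences and the delivered factors; those most informative are printed. Alternatives covered overlap, window, assignment distance, width and chromosomes.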

Additional observations from a re-analysis of the deposited data

How the results depend on the processing

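No paired analysis was possible because each group has 1 list, and no replicate could be left out for the same reason. Flag-only peaks outnumbered D209N-only peaks, and were the larger share of their list, under every alternative run. Requiring 50% of a peak to be covered lowered the shared share to 65.9% of Flag and 87.0% of D209N peaks, and counting partners within 500 bp raised it to 72.7% and 90.7%. Among peaks at or above their list's median width, 1035 Flag and 152 D209N peaks had no partner, and 94.3% and 99.0% were shared. Leaving out intervals under 50 bp, an alternative chosen after seeing the data, left both shares within their intervals. Gene-start shares for shared Flag, Flag-only and D209N-only peaks were 34.2%, 9.25% and 6.24% with a 500 bp window, 37.4%, 14.1% and 11.8% with 2500 bp, and 36.3%, 13.7% and 10.8% with 50% overlap. With wide peaks they were 46.4% and 24.2% for shared Flag and Flag-only peaks. Genes with fewer peaks in D209N numbered 3502 with wide peaks. Median widths of shared Flag, Flag-only, shared D209N and D209N-only peaks were 578, 307, 499 and 280 bp with 50% overlap. Outside gene starts and ends the first 3 were 478, 282 and 416 bp. With 50% of the day 3 peak covered, Flag-only peaks were found in Flag and D209N day 7 at 49.1% and 48.5%, D209N-only peaks at 50.9% and 48.8%, and shared Flag peaks at 82.9% and 83.9%. Of 152 named genes and list members that differed, 1 changed sign with assignment within 20 kb (Cdk6, to 1), and 25 had a difference of 0 there.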

Other observations

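The largest surplus of Flag-only regions in a 1 Mb window was on chromosome 6 from 124000001 to 125000000, which holds Clstn3, C1ra, Emg1 and P3h3, with 17 Flag-only and 0 D209N-only regions beside 29 in both lists. A window of chromosome 2 from 30000001 to 31000000, with Asb6, Lrrc8a and Set, had 16 and 0. The next chromosome 6 window, with Cd9, Chd4 and Ing4, and a chromosome 17 window with Anks1 and Tead3 each had 16 and 1. In the other direction, chromosome 2 from 69000001 to 70000000, around Cers6, Abcb11 and Lrp2, had 1 Flag-only and 6 D209N-only regions, and chromosome X from 18000001 to 19000000 had 0 and 5, the same difference. These windows were picked for their counts, so the values are a description.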
